A study of Homo sapiens with 18 samples.

Results

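The genes described here are 50 human genes of the primary cilium, chosen by name from among the 26702 genes that the deposited tables list: parts of the intraflagellar transport machinery, the BBSome, the transition zone, the basal body and the polycystins, with FOXJ1 as a factor of motile cilia. All 50 names were found. RNA had been collected from U2OS cells, a human osteosarcoma line with wild-type p53, after transfection with siControl, siANKRA2 or siRFXANK and 24 h with 10 µM Nutlin-3a, which frees p53 from MDM2, or with the solvent DMSO. The 6 groups, siControl DMSO, siControl Nutlin-3a, siANKRA2 DMSO, siANKRA2 Nutlin-3a, siRFXANK DMSO and siRFXANK Nutlin-3a, had 3 samples each, 18 in all. ANKRA2 and RFXANK are ankyrin repeat proteins that bind RFX transcription factors. The 6 siRFXANK samples were registered apart from the others and had no siControl samples registered with them, so that a batch and the knockdown cannot be told apart. All samples come from a single cell line, and nothing in the labels says whether the 3 samples of a group were separate cultures.

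A primary cilium is a single, non-motile rod of microtubules that grows from the mother centriole of a resting cell and carries receptors such as those of Hedgehog signalling. Intraflagellar transport moves cargo along it: the IFT-B complex travels outward with kinesin-2, the IFT-A complex returns with dynein-2, and the BBSome carries membrane proteins out. The transition zone is the gate at its base. Loss of these proteins causes ciliopathies such as Bardet-Biedl, Joubert and Meckel syndromes. RFX factors are classical activators of cilium genes and bind a motif named the X-box, an inverted repeat of a short half-site.

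Values per library were not used here, so nothing that follows compares siRNAs or treatments. The level given for a gene is the authors' mean normalized count, a single number for the whole fit, pooled over samples, with no spread and no n, and which samples entered it is not stated. Because long genes collect more reads, single genes are ordered by their level per length, which is that mean divided by the kilobases of exon in the GENCODE 29 annotation of GRCh38. Counts of genes past a minimum, percentiles by mean and marker levels use the mean itself, which also grows with length. Without a spread, the order of neighbouring genes has no replicate check. The depth of the libraries is unknown.

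Most of these genes were expressed at a moderate level. Their authors' means ran from 2.43 for FOXJ1 to 2220 for PKD1, with a median of 511. A mean of at least 100 was found for 47 of the 50, or 94% (exact Clopper-Pearson 95% interval 83.5 to 98.7%), against 71.0% of the 15943 protein-coding genes listed. At the upper end the order turned: 6 of the 50, or 12% (4.53 to 24.3%), had a mean of at least 1000, against 36.6% of protein-coding genes. These 6 were PKD1, TCTN3, CEP164, BBS7, MKS1 and IFT140. By mean, the cilium genes were thus less often below 100 and less often above 1000 than protein-coding genes at large, a description without a test. These intervals, as all others here, cover counting error only. Every member was listed in all 6 tables, as were 22738 of the 26702 genes listed in any. The tables differed in length from 22738 to 26702 genes. In the shortest of them the lowest mean was 2.34, just under that of FOXJ1.

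**Figure D1:**
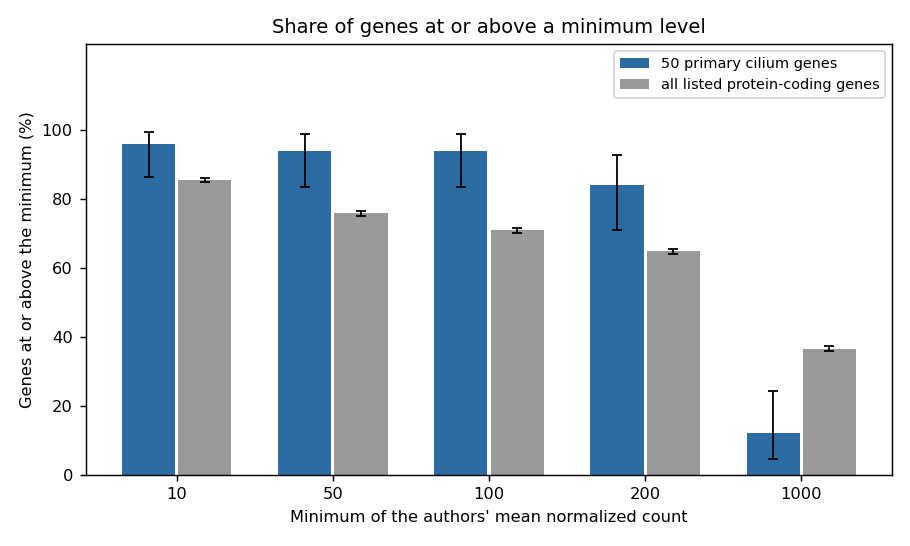
Share of genes (y axis, percent) whose authors' mean normalized count reached a minimum of 10, 50, 100, 200 or 1000 (x axis), for the 50 primary cilium genes (blue) and the 15943 listed protein-coding genes (grey). Bars are shares and whiskers exact 95% binomial intervals. The blue bar is the taller at 100 (94% against 71.0%) and the shorter at 1000 (12% against 36.6%).

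Per length the 50 genes had a median of 69.8 normalized counts per kb, below the median of 101 for protein-coding genes and above the 34.7 of all listed genes. The median member stood at the 67.2th percentile of all listed genes by mean, at the 48.8th of protein-coding genes by mean and at the 43.5th of protein-coding genes per length. The 5 highest per length were TCTN3, IFT52, MKS1, BBS7 and IFT57. The 5 lowest were FOXJ1, TMEM216, BBS1, TMEM67 and IFT172. Per kb of the longest transcript the 5 lowest were the same. The 5 highest were then TCTN3, MKS1, IFT52, IFT46 and IFT20, with BBS7 next at 345 and IFT57 at 272 per kb. The order of genes thus depends on the length used, and the orders per length below use exons unless stated. Per kb of exon, both ends held genes of the same complexes. IFT52, IFT57 and IFT172 belong to IFT-B, and MKS1, TCTN3, TMEM67 and TMEM216 to the transition zone. BBS7 and BBS1 belong to the BBSome, though the level of BBS1 is uncertain because of overlap described below.

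**Figure D2:**
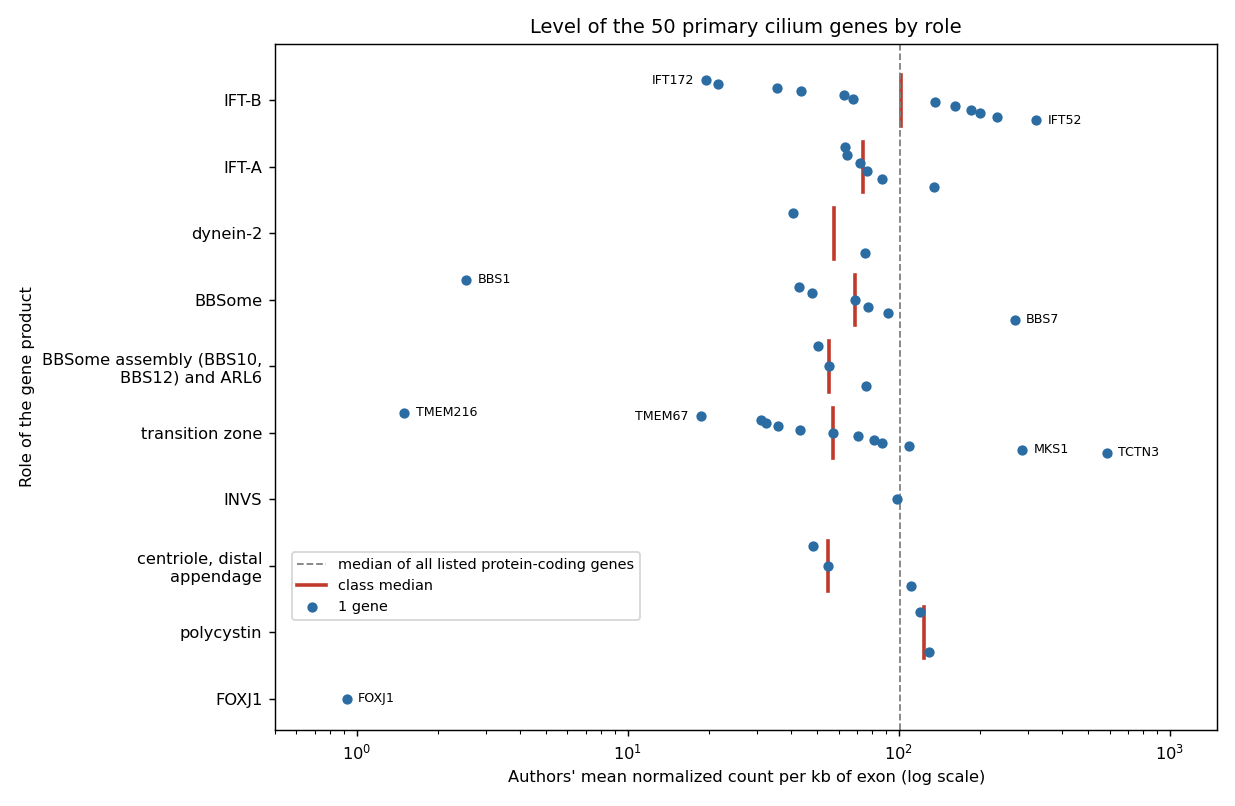
Authors' mean normalized count per kb of exon (x axis, log scale) for each of the 50 genes (points), by the role of the gene product (y axis). Red bars are the medians of classes with more than 1 gene, and the dashed line is the median of all listed protein-coding genes, 101 per kb. BBS1, TMEM216 and FOXJ1 stand to the left of all others, at 2.54 per kb or less.

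The 12 IFT-B genes, which build the outward train, had a median of 102 normalized counts per kb, close to that of protein-coding genes. No gene of the class stood near this median, which fell between TTC26 at 67.7 and IFT22 at 136 per kb. IFT52, a core subunit of the complex, was the highest of the class, with an authors' mean of 819 and 322 per kb. It lies on chromosome 20 from 43590931 to 43647296 on the plus strand. IFT57, a peripheral subunit, had a mean of 871 and 231 per kb, and IFT74, which binds tubulin together with IFT81, had a mean of 812 and 199 per kb. IFT81 stood well below its partner, at a mean of 250 and 35.7 per kb. The lowest 2 were IFT80, a peripheral subunit mutated in Jeune dysplasia, with a mean of 155 and 21.6 per kb, and IFT172, the largest IFT-B protein, with a mean of 164 and 19.5 per kb. The other IFT-B genes, IFT46, IFT20, IFT22, TTC26, IFT27 and IFT88, lay between 43.8 and 185 per kb.

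The 6 IFT-A genes were more alike than the IFT-B genes, from 63.5 to 135 per kb with a median of 74.0. IFT140, a core subunit, was the highest, with a mean of 1106 and 135 per kb. IFT43, the smallest subunit, followed with a mean of 362 and 86.8 per kb. WDR35, also named IFT121, had a mean of 597 and 76.2 per kb, and TTC21B, also named IFT139, had a mean of 541 and 71.8 per kb. The core subunits IFT122 and WDR19, also named IFT144, closed the class at means of 619 and 563 and at 64.3 and 63.5 per kb. Of the dynein-2 motor that pulls this train, the light intermediate chain gene DYNC2LI1 had a mean of 346 and 74.9 per kb, and the heavy chain gene DYNC2H1 had a mean of 613 and 40.8 per kb. Their order by mean was thus the reverse of that per length.

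The BBSome is a coat of 8 proteins, of which 7 were among the members, with a median of 68.8 per kb. BBS7, on chromosome 4 from 121824440 to 121870497 on the minus strand, was the highest, with a mean of 1294 and 268 per kb. BBS4 had a mean of 380 and 91.5 per kb, TTC8, also named BBS8, a mean of 482 and 77.0 per kb, and BBS2 a mean of 574 and 68.8 per kb. BBS9 followed with a mean of 296 and 47.8 per kb, and BBS5 with a mean of 196 and 43.0 per kb. BBS1 was listed far below its partners in the same coat, at a mean of 15.6 and 2.54 per kb, a level made uncertain by the overlap described below. BBS10 and BBS12, chaperonin-like proteins that help to assemble the BBSome, had means of 272 and 173 and 75.6 and 50.5 per kb. ARL6, the small GTPase that recruits the BBSome to membranes, had a mean of 253 and 55.3 per kb.

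The 13 transition zone genes spread the most widely, from 1.50 to 585 per kb with a median of 57.4. TCTN3, a tectonic protein of the Joubert and Meckel modules, was the highest of all 50 members, with a mean of 1885 and 585 per kb, at the 86.3th percentile of protein-coding genes per length. The other tectonics were lower, TCTN2 at a mean of 415 and 81.2 per kb and TCTN1 at a mean of 311 and 32.4 per kb. MKS1, a B9-domain protein, had a mean of 1165 and 286 per kb, and TMEM237, a membrane protein of the same gate, a mean of 832 and 109 per kb. At the low end, NPHP4 of the nephronophthisis module had a mean of 407 and 30.9 per kb, and TMEM67, also named meckelin, a mean of 155 and 18.7 per kb. TMEM216, a small membrane protein on chromosome 11 from 61391687 to 61398863 on the plus strand, was listed at a mean of 3.55 and 1.50 per kb. Its neighbour TMEM138, a transition zone gene that lies 22178 bp upstream on the same strand and was not a member, had a mean of 768 and 121 per kb. The others of the class, AHI1, CC2D2A, TMEM231, RPGRIP1L and CEP290, lay between 35.9 and 87.0 per kb.

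INVS, the inversin that names the compartment above the transition zone, had a mean of 587 and 98.7 per kb. CEP164, a protein of the distal appendages that dock the centriole to the membrane, had a mean of 1428 and 111 per kb. TTBK2, the kinase that CEP164 brings in to start cilium growth, had a mean of 625 and 48.4 per kb, and OFD1, a centriolar protein encoded on chromosome X, had a mean of 285 and 55.0 per kb. The polycystin genes mutated in dominant polycystic kidney disease had nearly the same level per kb of exon. PKD1 had a mean of 2220 and 120 per kb, and PKD2 a mean of 710 and 129 per kb. Per kb of the longest transcript PKD1 had 157 and PKD2 140. PKD1 shares sequence with pseudogenes, described below, and the part of this in its level was not tested. FOXJ1, the master regulator of motile cilia, was the lowest member, on chromosome 17 from 76136333 to 76141299 on the minus strand, with a mean of 2.43 and 0.921 per kb.

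The low value of FOXJ1 was set beside 15 other genes of motile cilia, of which 12 were listed and 3 (CCNO, MCIDAS and CCDC40) had a mean of at least 100. Their median was 3.21 per kb. CCNO and MCIDAS, which drive the multiplication of centrioles in multiciliated cells and lie 3837 bp apart on chromosome 5, had means of 365 and 183, with 202 and 87.5 per kb. The axonemal dynein genes DNAH5, DNAH11, DNAI1 and DNAH9 had 0.197 to 3.27 per kb. TEKT1, DNAI2 and CCDC39 were not listed. Markers of the labelled source were checked too, since U2OS is a bone tumour line whose siRFXANK samples are labelled as epithelial cells. COL1A1 and SPARC, matrix genes of osteoblasts, had means of 64042 and 29456, RUNX2 had 454 and ALPL 148, while COL1A2 and BGLAP, at 33.2 and 2.08, were low and SP7 was not listed. Among epithelial markers KRT8 and KRT18 had means of 21456 and 12960, EPCAM 161, CDH1 32.9 and KRT19 1.67, beside the mesenchymal VIM at 55026 and CDH2 at 5098. Whether any of these levels differed between groups was not tested.

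Of 36 other genes of the primary cilium, all were listed and 34 had a mean of at least 100, with a median of 96.4 per kb against 69.8 for the 50 members. The 4 genes of the kinesin-2 motors, which pull IFT-B outward, all passed 100, with KIF3B the highest at a mean of 6574 and 1077 per kb. The 10 genes of the ciliary membrane and of Hedgehog signalling also all passed it. Among them TULP3, which brings receptors into the cilium, had 697 per kb, and SMO, the Hedgehog transducer, and its effector GLI2 had 310 and 276 per kb. All 8 further transition zone genes had a mean of at least 100, between 10.7 and 200 per kb, and so had all 4 further distal appendage genes, between 31.6 and 121 per kb. Of 10 further subunits of IFT, BBSome and dynein-2, 8 did, with the dynein-2 chain WDR34 at 1552 per kb. Its partner WDR60 had 23.3 per kb. TTC30B, at a mean of 97.7, and the dynein-2 light chain gene TCTEX1D2, at 42.5, fell below 100.

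Some members share sequence with other genes, and how the authors' counting treated reads in such places is not stated, nor whether it used strand. The exons of 23 of the 50 genes overlap exons of another gene, and for 5 of them more than 20% of the exonic length is overlapped. Shares of overlap and of shared sequence over all listed genes were not computed, so whether the members differ from them is not known. Among the 50, BBS1 is the extreme case. It lies on chromosome 11 from 66510606 to 66533627, 64.5% of its exonic length is overlapped, and 89.8% of the 31-base stretches of its longest transcript also occur in AP002748.4, a longer gene model on the same strand that the tables do not list. ZDHHC24 overlaps it on the opposite strand and had a mean of 538. The level of BBS1 is therefore uncertain, and the part of this overlap in it was not tested.

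Other members share sequence in smaller measure. IFT80 shares 45.4% of its stretches, with the gene model AC079594.2 on the same strand (mean 0.828) among others, and meets SMC4 (mean 4476) on the opposite strand. BBS5 shares 51.1%, with AC093899.2 among others, and TMEM237 shares 31.6% with the enolase gene ENO1 and its pseudogene ENO1P4. PKD1 shares 45.7% with pseudogenes such as PKD1P5 and PKD1P6, which had means of 181 and 172, and TMEM231 shares 21.1% with TMEM231P1 and other models. TTBK2 is overlapped over 26.2% of its exonic length but shares only 1.45% of its stretches. The 5 genes with over 20% overlap, BBS1, IFT80, TTBK2, TMEM237 and BBS5, had a median of 43.0 per kb, against 71.8 for the other 45. The other 2 members below a mean of 50 had little of either, with TMEM216 overlapped over 0% and sharing 6.74% of its stretches, and FOXJ1 overlapped over 0.341% and sharing 0%.

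**Figure D3:**
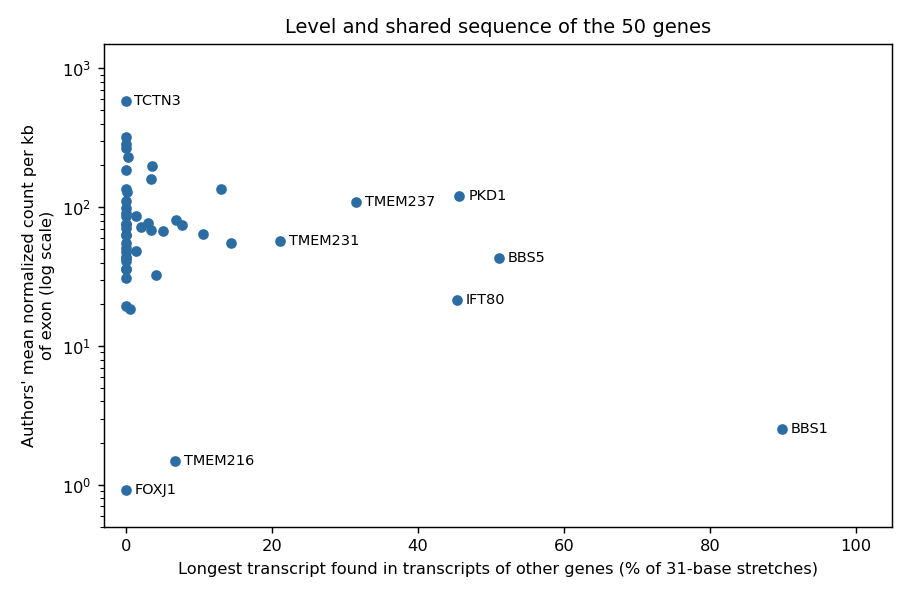
Authors' mean normalized count per kb of exon (y axis, log scale) against the share of 31-base stretches of the longest transcript found as well in another gene's transcripts (x axis, percent), 1 point for each of the 50 genes. BBS1 stands alone at 89.8% and 2.54 per kb, while TMEM216 and FOXJ1 are as low with 6.74% and 0% shared.

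Several members share a start region with a neighbour on the opposite strand. A gene read in the other direction began within 1000 bp of the start of 14 of the 50, or 28% (16.2 to 42.5%), against 15.3% of listed protein-coding genes. Among listed protein-coding genes, 8.54% had a coding neighbour within this distance, whether or not it was the nearest. For 6 of the 14 members, or 12% of the 50 (4.53 to 24.3%), the nearest neighbour codes for a protein. These pairs were BBS4 with HIGD2B at 30 bp, CEP290 with TMTC3 at 80 bp, OFD1 with TRAPPC2 at 110 bp, IFT20 with TNFAIP1 at 113 bp, IFT140 with CRAMP1 at 215 bp and INVS with ERP44 at 216 bp. The background share of any neighbour lay just under the members' interval. That of coding neighbours lay within it, though it was counted more widely than for the members.

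The X-box was looked for because RFX factors and their partners ANKRA2 and RFXANK are what the siRNAs of this study concern. The promoters came from RefSeq on GRCh38.p14, from 250 bases before to 50 bases after each annotated start, and 44 of the 50 members had an entry. BBS9, FOXJ1, IFT22, TCTN2, TMEM67 and WDR35 had none. The half-sites searched were GTTNCC and its reverse complement GGNAAC, as a pair on either strand. A pair exactly 2 bases apart stood in the promoter of ARL6 alone, and pairs 1 or 3 bases apart in those of IFT122, TCTN1 and TCTN3, which were chosen for printing after their values were seen. The 4 stretches show how like these pairs are, with the pair in capitals and each read 5′ to 3′ on the strand of its gene. They lie at chr3:97764694-97764787 on the plus strand (ARL6), chr3:129440172-129440253 on the plus strand (IFT122), chr12:110614089-110614158 on the plus strand (TCTN1) and chr10:95694090-95694177 on the minus strand (TCTN3).
ARL6: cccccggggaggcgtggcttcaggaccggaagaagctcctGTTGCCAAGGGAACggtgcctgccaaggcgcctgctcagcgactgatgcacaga
IFT122: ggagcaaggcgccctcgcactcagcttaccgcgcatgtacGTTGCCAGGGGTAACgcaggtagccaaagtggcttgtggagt
TCTN1: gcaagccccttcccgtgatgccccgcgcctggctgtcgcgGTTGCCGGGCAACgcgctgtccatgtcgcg
TCTN3: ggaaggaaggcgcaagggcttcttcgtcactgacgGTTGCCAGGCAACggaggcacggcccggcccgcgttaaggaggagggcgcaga

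All 4 pairs open with the half-site GTTGCC on the strand of the gene. The pairs in TCTN1 and TCTN3 have the same other half-site and a spacer of 1 base, whereas ARL6 and IFT122 differ from them and from each other in both. From the RefSeq start, the pair began 24 bases before it in ARL6 and 12 bases before it in IFT122. It began at the start itself in TCTN1 and 215 bases before it in TCTN3. ARL6 has 2 RefSeq starts, and its value is from 1 of them. From the start of the gene in GENCODE 29, which lies elsewhere, the same pairs began 213, 176, 102 and 1 bases after it, in that order of genes, so that the position of a pair depends on the annotation. TCTN1, ARL6 and IFT122 had 32.4, 55.3 and 64.3 per kb, and TCTN3 had 585 per kb, the highest of the 44.

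Shares of promoters with a motif depended strongly on how strict the motif was. The pair 2 bases apart was in 1 of 44 member promoters, or 2.27% (exact interval 0.0575 to 12.0%), against 0.593% of the promoters of all 27305 genes and 0.682% of those of 15843 protein-coding genes. With 0 to 3 bases between the half-sites it was in 4 of 44, or 9.09% (2.53 to 21.7%), against 0.905% and 1.07%. The single half-site GTTGCC was in 19 of 44, or 43.2% (28.3 to 59.0%), against 14.6% and 16.2%. The degenerate X-box consensus, a loose motif that overlaps the pairs, was in 27 of 44, or 61.4% (45.5 to 75.6%), against 36.8% and 38.2%. Apart from the pair 2 apart, the background shares lay outside the members' intervals. A match says only that these letters stand in the window, and no binding was measured.

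**Figure D4:**
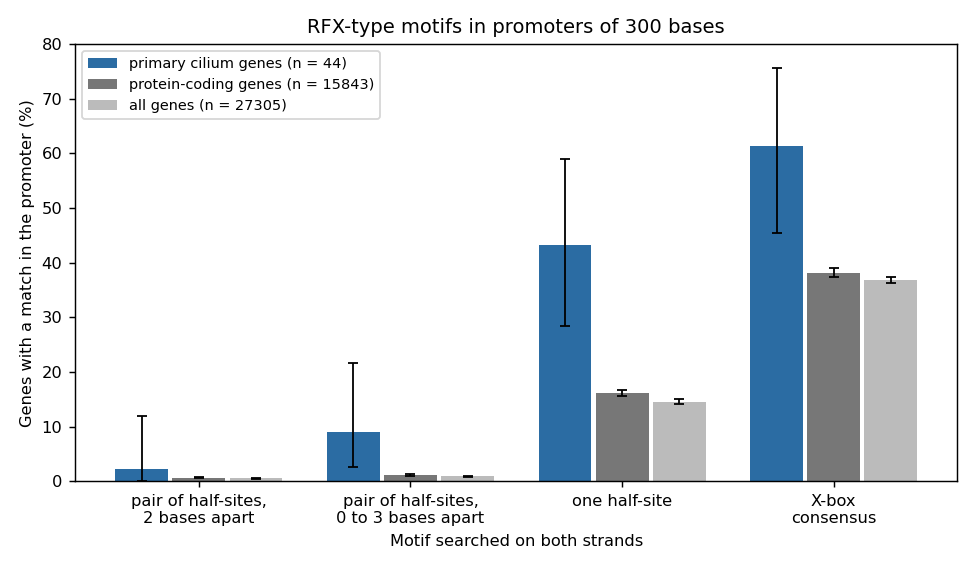
Share of genes with a motif match in their RefSeq promoter of 300 bases (y axis, percent) for 4 motifs (x axis), with primary cilium genes in blue, protein-coding genes in dark grey and all genes in light grey. Whiskers are exact 95% binomial intervals. The single half-site stands in 43.2% of the cilium promoters and in 14.6% of all.

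The half-site occurred in most roles. Both dynein-2 genes had it, as did 3 of 6 BBSome genes with a promoter entry (BBS1, BBS5 and TTC8), 5 of 11 IFT-B genes (IFT27, IFT46, IFT74, IFT81 and IFT88), 4 of 11 transition zone genes (MKS1, TCTN1, TCTN3 and TMEM231), 2 of 3 centriolar genes (CEP164 and OFD1), and ARL6 and BBS10. Of 5 IFT-A genes only IFT122 had it, and neither INVS nor the polycystin genes did. Matches were pooled over the RefSeq starts of a gene and told apart by strand and offset from the start. A site seen from 2 starts can thus count more than once. Of the 29 matches in these 19 genes, 22 had their middle no more than 100 bases before the RefSeq start or after it. Of these, 8 lay at or after the start itself. The middle of the median match was 21 bases before the start. TMEM231, with 2 starts, gave 4 matches, and ARL6, also with 2 starts, gave 3. How many distinct sites these are was not counted.

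Members with and without the half-site had overlapping levels. The 19 with it had a median of 62.9 per kb, from 2.54 for BBS1 to 585 for TCTN3, and the 25 without it had a median of 71.8 per kb, from 1.50 for TMEM216 to 322 for IFT52. TMEM216 and BBS1 thus stood at the low end of either set. The median GC content of member promoters was 62.5%, close to the 62.3% of protein-coding genes and above the 58.3% of all genes. Their median ratio of observed to expected CpG was 0.907, against 0.737 for protein-coding genes and 0.563 for all genes. The part of this composition in the motif shares was not tested.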

How the data were processed

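RNA-seq libraries of polyadenylated RNA came from 18 samples of U2OS cells in 6 groups. The authors deposited 6 comparison tables. The submitters' processing notes name featureCounts 1.6.5, DESeq2 1.20.0 and hg38, and the aligner, annotation and use of strand are not given in the sources used here. Each table holds the authors' mean normalized count per gene, treated as a signal value, equal in every table and pooled over samples. The tables further hold the authors' fold changes, standard errors, test statistics and p-values, which were not used, so no group was compared. Values per library were not analysed here, and the depth of each library is unknown. Exonic length was the union of exons in GENCODE 29, and shared sequence the share of 31-base stretches found in other genes' transcripts. A divergent neighbour began within 1000 bp on the other strand. Motifs were searched on both strands of RefSeq promoters, by code tested on simulated data, and intervals are exact Clopper-Pearson (Python 3.11.15, pandas 2.3.3, scipy 1.17.1). The members and lists were chosen with earlier results of these data known. Values were given for all members of roles with up to 7 genes, for the 3 highest and 3 lowest per length of larger roles, and for up to 4 of the highest genes of other lists. Outside that rule, TCTN1, TCTN2, low genes of other lists, neighbours, all markers and the RFX genes and partners were given, chosen after their values were seen. Alternatives were the length used, the reference genes, the minimum level and the motif.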

Additional observations from a re-analysis of the deposited data

How the results depend on the processing

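The median level of the 50 genes, 69.8 per kb of exon, was 93.0 per kb of the longest transcript, 68.8 without PKD1 and 71.8 without the 5 genes overlapped over 20% of their exons. Their median percentile, 67.2 among all listed genes, was 53.0 when genes under a mean of 10 were left out and 48.8 among protein-coding genes. The share of promoters with an RFX motif, 2.27% for the pair 2 bases apart, was 43.2% for a single half-site and 61.4% for the X-box consensus. The last of these and the set without overlapped genes were added after seeing the data, as was the protein-coding share of promoters with a half-site, 16.2% against 14.6% for all genes. The count of 47 genes with a mean of at least 100 was 47 at 50 and 42 at 200, and all 50 were in every table. No paired analysis was possible because the tables used hold no values per library, and for the same reason leaving out replicates, other size factors and other count filters were not run. Without a spread between libraries, the levels carry no error.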

Other observations

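The RFX factors themselves were expressed unequally. Of 11 genes for RFX factors and their partners, 10 were listed and 8 had a mean of at least 100. RFX5, which acts with RFXANK and RFXAP at HLA class II promoters, had the highest level of the RFX factors, with a mean of 2275 and 496 per kb, followed by RFX7 with a mean of 1361 and 129 per kb. RFX1, RFX2 and RFX3, the factors best known for cilium genes, had means of 588, 356 and 324 and 108, 39.1 and 29.0 per kb. RFX6 and RFX8 had means of 1.32 and 1.26, and RFX4 was not listed. The partners RFXANK and RFXAP had means of 758 and 133. ANKRA2, which shares its ankyrin repeats with RFXANK, had a mean of 31568, at the 99.9th percentile of all listed genes. Which groups carry that mean cannot be told from a value pooled over samples.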
